A study of Mus musculus with 23 samples.

Results

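The subunits of the 5 complexes of oxidative phosphorylation were followed in neural retina of mouse retinal organoids, with the subunits encoded in the nucleus kept apart from those encoded in mitochondrial DNA. Members were the protein-coding genes on assembled chromosomes whose names mark them as subunits. These names begin with Nduf and A, B, C, S or V and a number, Uqcr, Cox4 to Cox8, Sdha to Sdhd, Atp5, mt-Nd, mt-Co, mt-Atp or mt-Cytb. The rule gave 98 of the 52143 genes in the deposited gene table, 85 nuclear and 13 mitochondrial. By complex the nuclear members numbered 35 for complex I, 4 for complex II, 8 for complex III, 20 for complex IV and 18 for complex V. The mitochondrial ones numbered 7 for complex I, 1 for complex III, 3 for complex IV and 2 for complex V. Ndufa4 and Ndufa4l2 were counted with complex IV. No measured value entered the choice. A further 12 name matches were of another biotype and 3 lay on patch sequences, and these were left out.

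Complexes I and II pass electrons from NADH and succinate to ubiquinone, complex III passes them on to cytochrome c, and complex IV passes them to oxygen. Complexes I, III and IV pump protons across the inner mitochondrial membrane, and complex V, the ATP synthase, uses their return flow to make ATP. All these complexes but complex II are assembled from nuclear and mitochondrial gene products, so their supply depends on both genomes. In the retina, the inner segments of photoreceptors are densely packed with mitochondria, while the tissue also runs strong aerobic glycolysis.

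The organoids are described as coming from 1 clone of induced pluripotent stem cells of a wild-type Nrl-GFP mouse line. In this reporter line the promoter of the rod factor gene Nrl drives green fluorescent protein. The cells had been reprogrammed from embryonic fibroblasts with doxycycline-inducible lentiviral Oct3/4, Sox2, Klf4 and c-Myc. By this description every group shares the clone. Yet 5 libraries differed from the other 18 in Y-linked and imprinted genes, as given below. Whether all libraries share 1 clone was not tested. Neural retina was dissected from pooled organoids, and RNA was sequenced as stranded poly(A) libraries. The groups at day 32 (D32) with FGF1, a fibroblast growth factor given at 200 ng/ml from day 26, were docosahexaenoic acid (DHA, 2 libraries), linoleic acid (LA, 3) and bovine serum albumin alone (BSA, 3). At D32 without FGF1 there were 3 libraries each of DHA, LA and BSA, and at day 26 (D26) there were 2 of each. DHA is an omega-3 fatty acid abundant in photoreceptor membranes, and LA is an omega-6 fatty acid. Each was given from day 10 at 26 µM bound to albumin, the carrier that the BSA groups received alone. The culture medium itself was also changed at day 26. D32 with FGF1 against D26 therefore holds the day, FGF1 and that change together, and these cannot be told apart.

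The 23 libraries fell into 12 deeper ones (16029580 to 20510550 counts) and 11 shallower ones (10405663 to 11888224 counts), a division the labels do not name. The deeper set held all 6 D26 libraries and, of each D32 group with FGF1, replicates 1 and 2. The shallower set held the 9 D32 libraries without FGF1 and the remaining FGF1 libraries, which are the LA and the BSA replicate 3. The authors' normalized table omits 5 of the shallower libraries, namely both with FGF1 and replicate 1 of each D32 group without it. These 5 stood apart. The Y-linked gene Eif2s3y was at 29.9 to 69.8 CPM in them and at most 0.787 CPM in the other 18. The imprinted RNA Meg3 was at 139 to 428 CPM against at most 7.53 CPM. CPM is a gene's count scaled to the size of its library, here with library sizes adjusted by the trimmed mean of M-values (TMM) over all 23 libraries. The 12 deeper libraries are all in the authors' table, so the comparisons within them rest on none of the 5. In the deeper libraries 10 of 10 photoreceptor markers reached 1 CPM or more, and Crx, a defining photoreceptor factor, was at 948 to 1361 CPM in D32 FGF1 libraries and 946 to 1228 CPM at D26. Pigment epithelium markers were present in some of these libraries, with sums of 8.54 to 246 CPM in D32 FGF1 libraries and 9.86 to 318 CPM at D26 and 5 and 6 of 8 markers at 1 CPM or more. Ttr reached 177 and 188 CPM, Pmel 30.6 and 50.2 CPM and Tyrp1 20.0 and 50.1 CPM, while Rpe65 was at most 0.0524 CPM and Best1 at most 0.601 CPM. Their part in the results was not tested.

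Mitochondrial messages were the most abundant of the subunits per length. Levels between genes were compared as transcript counts per length, scaled to the same total in each library. On this scale, in the deeper libraries, mt-Co1, the catalytic core of complex IV, had the highest level of all members at 15778 ± 1512 in D32 FGF1 libraries and 17808 ± 826 at D26 (SD, n = 6 each). The other core subunits of complex IV followed: mt-Co2 at 11662 ± 1326 and 12813 ± 699, and mt-Co3 at 9478 ± 1221 and 11763 ± 694. Next came mt-Cytb, the cytochrome b of complex III (6443 ± 676 and 5888 ± 469), and mt-Atp6, the proton-channel subunit of ATP synthase (6226 ± 1183 and 5961 ± 645). These last 2 neighbours lay within each other's spread when counted, as here, without the nuclear copies described below. The identical copy of mt-Atp6 was assigned 15.6 to 37.1% of the pair's counts in D32 FGF1 libraries and 33.1 to 45.8% at D26. The place of mt-Atp6 in this order therefore depends on that assignment.

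The 7 complex I subunits of the mitochondrial genome were lower and close together, led by mt-Nd1 (3549 ± 714 in D32 FGF1 libraries and 3397 ± 513 at D26) and ending with mt-Nd3 (1489 ± 281 and 1693 ± 161). mt-Nd4 (3105 ± 368 and 2739 ± 294), mt-Nd4l (2563 ± 363 and 2197 ± 314), mt-Nd5 (2286 ± 207 and 2194 ± 201), mt-Nd2 (2266 ± 272 and 2187 ± 277) and mt-Nd6 (2126 ± 251 and 1977 ± 236) lay between them, with neighbours not separated beyond their spread. mt-Atp8, a small subunit of the ATP synthase membrane part, stood at 2811 ± 499.5 and 3382 ± 312. Among nuclear members the highest was Atp5b, the catalytic beta subunit of ATP synthase, at 1034 ± 114 and 845 ± 88.4 on the same per-length scale. Cox4i1, the common form of a regulatory complex IV subunit, followed at 660.5 ± 49.5 and 649.6 ± 77.8. The median mitochondrial member exceeded the median nuclear member by 3.86 on the log2 scale in D32 FGF1 libraries and by 4.00 at D26, and these values depend on how length is counted. Taking 200 bases off every length gave 4.52 and 4.44.

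The tissue-restricted isoforms of complex IV listed here were minor beside their common partners. Ndufa4l2, counted as such an isoform too, had a larger mean share beside Ndufa4 and is given further below. Per length, Cox4i2, an oxygen-responsive form, made up 15.7 ± 5.59% of Cox4i2 plus Cox4i1 in D32 FGF1 libraries and 16.9 ± 3.86% at D26 (n = 6 each). Cox6b2, a form known from testis, made up 12.8 ± 2.56% of Cox6b2 plus Cox6b1 in D32 FGF1 libraries and 18.0 ± 2.80% at D26. The heart and muscle forms were lower still. Cox6a2 made up 1.62 ± 0.919% and 1.28 ± 0.385% beside Cox6a1, and Cox7a1 made up 3.40 ± 0.549% and 2.19 ± 0.525% beside Cox7a2. Cox8b stood at 0.258 ± 0.243% and 0.216 ± 0.192% beside Cox8a. Cox7b2 and Cox8c had no counts at D26 and made up at most 0.113% and 0.0567% beside Cox7b and Cox8a in D32 FGF1 libraries. Muscle markers were low in the same libraries, with a summed level of 19.0 to 37.8 CPM in D32 FGF1 libraries and 6.70 to 10.8 CPM at D26. Of these markers Tnnt2 was at 11.5 to 31.4 CPM in D32 FGF1 libraries and 0.161 to 1.75 CPM at D26. The ranges of every other muscle marker overlapped between the groups. At 1 CPM or more were 5 of the 10 markers in D32 FGF1 libraries and 7 at D26. Their part in the muscle-form shares was not tested.

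In D32 organoids with FGF1 the subunits stood mostly below their D26 levels, by small steps, within the 12 deeper libraries. Of 82 nuclear members tested, 12 were lower and 1 was higher in edgeR's quasi-likelihood test (adjusted p under 0.05 over 20111 genes). Of 13 mitochondrial members 5 were lower and 0 higher. Over all genes tested 28.7% were called, 14.6% higher and 14.1% lower, against 15.9% of the nuclear and 38.5% of the 13 mitochondrial members. The median log2 difference was −0.17 for nuclear members (62 of 82 below 0), −0.14 for mitochondrial members (12 of 13 below 0) and 0.00 for all genes tested (49.8% below 0). In bulk tissue, fewer cells of a type and less RNA per cell cannot be told apart. Over the same libraries the summed photoreceptor markers were 5316 to 9556 CPM in D32 FGF1 libraries and 3434 to 4793 CPM at D26. Muller glia markers summed to 1177 to 1754 and 659.5 to 949 CPM, and progenitor and cycling-cell markers to 136 to 246 and 347 to 558 CPM. The 6 retinal identity markers, like the subunits, were lower, with sums of 752 to 954 CPM in D32 FGF1 libraries and 995 to 1382 CPM at D26. Replicate 1 of LA with FGF1 stood apart in fibroblast markers, at 435 CPM (27.1 to 114 CPM in the other D32 FGF1 libraries and 17.7 to 88.7 CPM at D26), and in pericyte markers, at 65.8 CPM (7.09 to 20.7 and 7.92 to 22.5 CPM). Their part in the subunit differences was not tested.

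**Figure D1:**
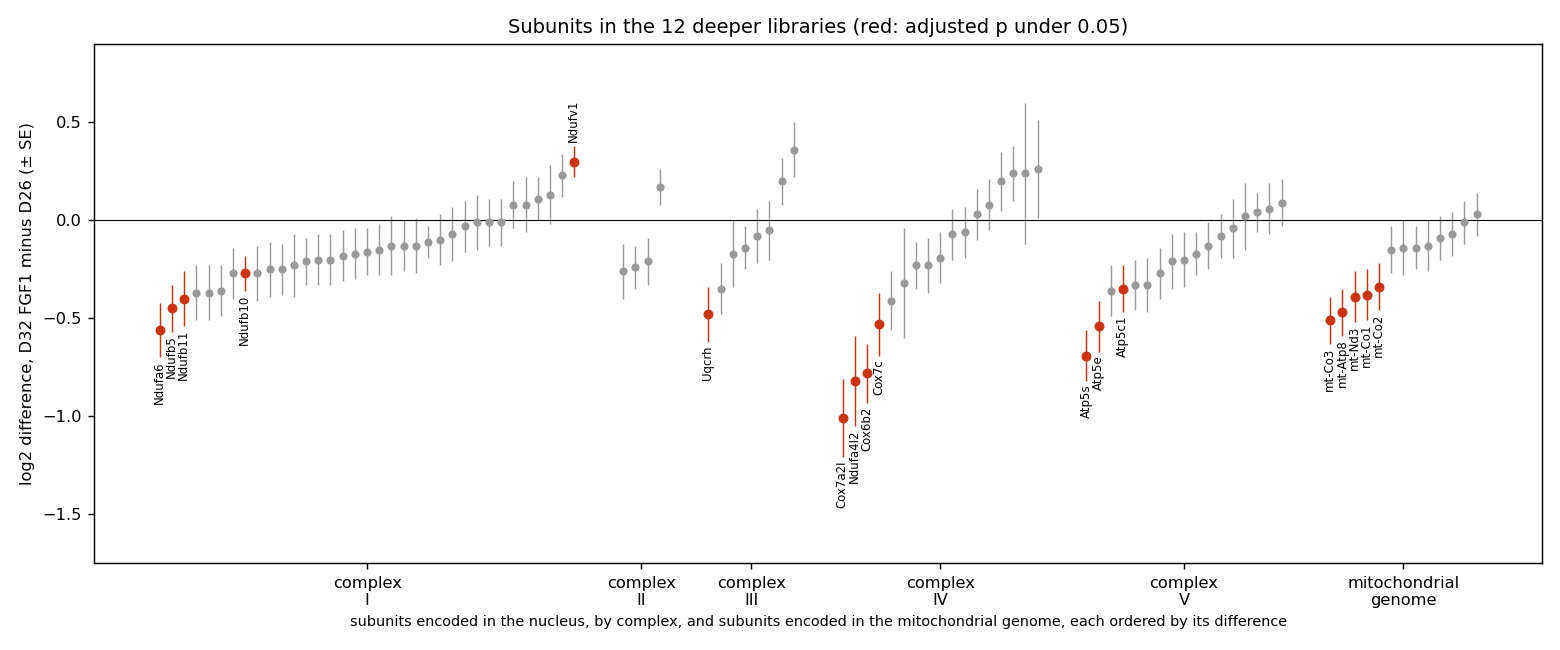
Log2 difference of each tested subunit, D32 with FGF1 minus D26, in the 12 deeper libraries, with its standard error as a bar; nuclear subunits are grouped by complex, mitochondrial ones stand at the right, red points passed an adjusted p under 0.05, and a second gene model of Atp5o, at 0 in every D26 library, is not drawn. Complex IV and V hold the largest decreases, from −1.01 for Cox7a2l, and Ndufv1 is the only red point above 0, at 0.30.

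Complex IV held the largest of the differences that passed, with 4 of 17 nuclear members tested lower, beside 14.1% of all genes tested. Cox7a2l encodes the factor that joins complexes III and IV into supercomplexes (GRCm38 chr17:83501919-83514333, minus strand). It was at 204 and 115 CPM in DHA, 184 and 127 in LA and 184 and 109 in BSA libraries at D32 with FGF1. At D26 it was at 344 and 387 CPM in DHA, 347 and 196 in LA and 351 and 278 in BSA libraries. In each FGF1 group replicate 1 was the higher, and the groups overlapped only through replicate 2 of D26 LA. Cox7a2l fell by 1.01 on the log2 scale (SE 0.20, adjusted p = 0.0034). Its share of Cox7a2l plus Cox7a2 per length was 51.2 ± 7.47% in D32 FGF1 libraries and 62.1 ± 2.89% at D26. Its relative Cox7a2 itself, at 78.9 ± 2.78 CPM in D32 FGF1 libraries and 107 ± 24.9 at D26, did not pass (log2 difference −0.41, adjusted p = 0.0546).

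Ndufa4l2 is a paralogue of the complex IV subunit gene Ndufa4, known for its induction by hypoxia. It was at 53.0 and 26.0 CPM in DHA, 43.2 and 32.3 in LA and 44.4 and 18.9 in BSA libraries at D32 with FGF1. At D26 it was at 63.7 and 76.2 CPM in DHA, 76.3 and 47.6 in LA and 58.5 and 66.2 in BSA libraries. Replicate 1 was again the higher in each FGF1 group, and a single FGF1 library reached into the D26 range. Ndufa4l2 fell by 0.82 (SE 0.23, adjusted p = 0.0211), while Ndufa4 averaged 122 ± 16.8 and 117 ± 18.3 CPM (0.08, 95% interval −0.19 to 0.36). Ndufa4l2 made up 18.8 ± 7.11% of the pair per length in D32 FGF1 libraries and 29.1 ± 2.18% at D26. Cox4i2, the other oxygen-responsive member, averaged 37.4 ± 13.7 and 47.5 ± 14.3 CPM and did not pass (−0.32, 95% interval −0.94 to 0.30, adjusted p = 0.441). Cox4i1 did not pass either (176 ± 10.8 and 203 ± 37.6 CPM; −0.19, adjusted p = 0.32).

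Cox6b2 (chr7:4751792-4753094, minus strand) had 15.2 and 12.0 CPM in DHA, 15.6 and 19.0 in LA and 18.0 and 10.1 in BSA libraries at D32 with FGF1. At D26 it had 29.4 and 27.2 CPM in DHA, 25.3 and 19.6 in LA and 28.0 and 26.8 in BSA libraries. The groups did not overlap, though the highest FGF1 and the lowest D26 library, both LA replicate 2, nearly met. Cox6b2 fell by 0.78 (SE 0.15, adjusted p = 0.00285). Cox7c, a small subunit without a tissue form, averaged 74.1 ± 6.73 CPM in D32 FGF1 libraries and 109 ± 27.0 CPM at D26 and fell by 0.53 (adjusted p = 0.0304), with overlapping ranges. The muscle forms Cox6a2 (0.24, adjusted p = 0.66) and Cox7a1 (0.26, adjusted p = 0.481) did not pass.

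**Figure D2:**
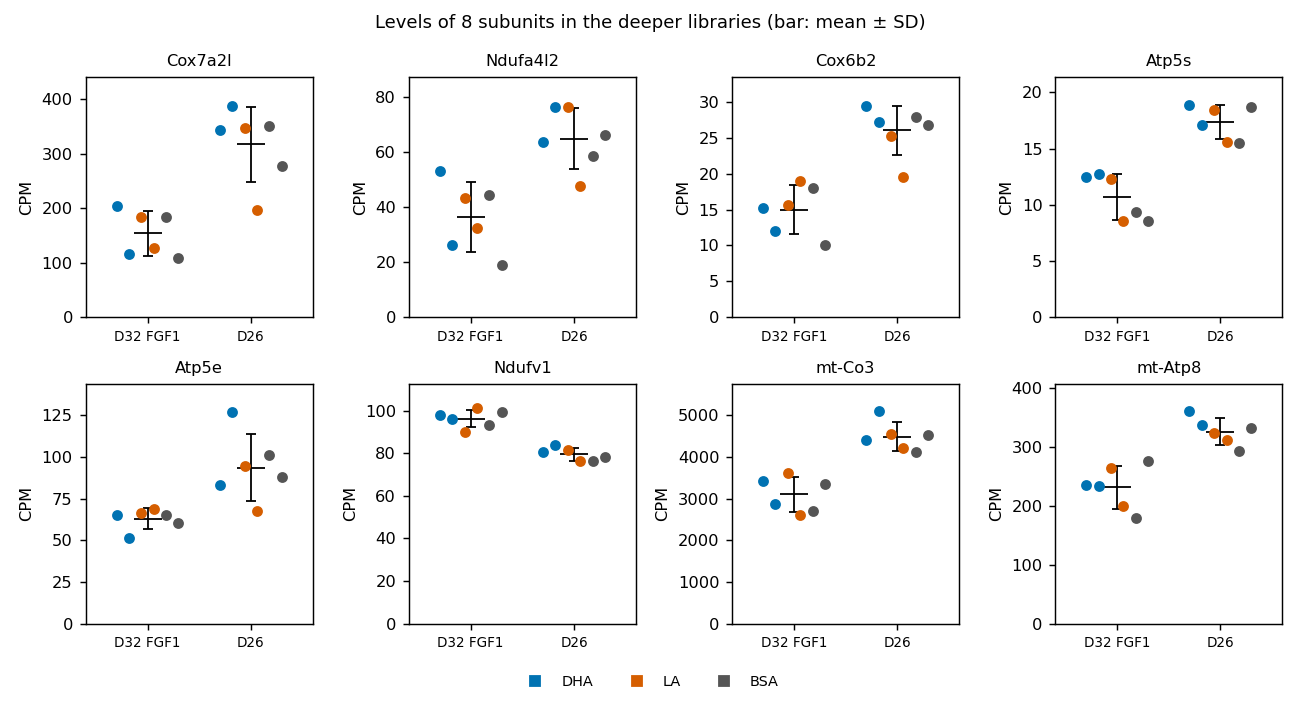
CPM of 8 subunits in each deeper library, D32 with FGF1 left and D26 right, colored by medium, with the mean and SD as bars. Cox6b2, Atp5s, mt-Co3 and mt-Atp8 are lower and Ndufv1 is higher in every FGF1 library than in any D26 library, while Cox7a2l, Ndufa4l2 and Atp5e overlap between the groups.

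In complex V, 3 of 18 nuclear members fell, near the 14.1% lower over all genes tested. Atp5s encodes coupling factor B of the ATP synthase (chr12:69724950-69744660, plus strand). It was among the less abundant members, at 19.2 ± 2.99 per length in D32 FGF1 libraries and 27.3 ± 2.93 at D26 beside 1034 ± 114 and 845 ± 88.4 for Atp5b. It had 12.5 and 12.7 CPM in DHA, 12.3 and 8.55 in LA and 9.38 and 8.58 in BSA libraries at D32 with FGF1. At D26 it had 18.9 and 17.1 CPM in DHA, 18.4 and 15.6 in LA and 15.5 and 18.7 in BSA libraries. No FGF1 library reached the D26 range, and Atp5s fell by 0.69 (SE 0.13, adjusted p = 0.00168), the smallest adjusted p among the members. Atp5e, the epsilon subunit of the F1 head, had a lowest, median and highest level of 51.7, 65.3 and 68.9 CPM in D32 FGF1 libraries and 67.7, 91.4 and 127 CPM at D26. These ranges just overlapped, and Atp5e fell by 0.54 (SE 0.13, adjusted p = 0.00855). Atp5c1, the gamma shaft of the F1 head, fell by 0.35 (174 ± 8.14 and 225 ± 36.4 CPM, adjusted p = 0.0441). The catalytic Atp5b did not pass (772 ± 86.4 and 735 ± 116 CPM; 0.09, 95% interval −0.18 to 0.36). A second gene model of Atp5o had no counts at D26 and at most 1.04 CPM in D32 FGF1 libraries, and did not pass. Of the 3 genes for the proton-carrying c subunit, Atp5g1 (0.06) and Atp5g3 (0.04) were near 0 and Atp5g2, the rarest, did not pass (−0.36, adjusted p = 0.0517).

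Complex I held 4 lower members and the only higher one among 35, beside 14.1% lower and 14.6% higher over all genes tested. Ndufv1 is the flavin-binding core subunit that takes electrons from NADH (chr19:4007497-4012806, minus strand). It had 98.1 and 96.2 CPM in DHA, 89.9 and 101 in LA and 93.0 and 99.3 in BSA libraries at D32 with FGF1. At D26 it had 80.7 and 83.9 CPM in DHA, 81.3 and 76.5 in LA and 76.2 and 78.1 in BSA libraries. The groups did not overlap, and Ndufv1 rose by 0.30 (SE 0.08, adjusted p = 0.0119). The call was lost when transcript counts were summed in place of the gene counts (0.19, adjusted p = 0.128). The 4 that fell are accessory subunits. Ndufa6 fell by 0.56 (43.9 ± 6.23 and 66.0 ± 12.6 CPM, adjusted p = 0.0118) and Ndufb5 by 0.45 (62.7 ± 3.71 and 87.4 ± 16.9 CPM, adjusted p = 0.0176). Ndufb11 fell by 0.40 (72.3 ± 5.63 and 97.2 ± 21.8 CPM, adjusted p = 0.0456) and Ndufb10 by 0.27 (45.5 ± 3.84 and 55.5 ± 4.98 CPM, adjusted p = 0.0438). Ndufs1, the largest core subunit, did not pass at 0.23 (95% interval −0.01 to 0.47).

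Few members of complexes II and III passed, where 28.7% of all genes tested were called. Of 8 nuclear complex III members 1 was called, Uqcrh, the hinge protein that helps cytochrome c dock. Its lowest, median and highest level was 114, 129.8 and 140.5 CPM in D32 FGF1 libraries and 125, 184 and 224 CPM at D26, and it fell by 0.48 (SE 0.14, adjusted p = 0.0263). Its ranges overlapped. Uqcrc2, a core protein, stood at −0.35 (adjusted p = 0.0722) and Uqcrq, a small subunit, at 0.36 (adjusted p = 0.0662), on either side of 0 and neither called. In complex II 0 of 4 genes passed in edgeR's test, and 1 had an unadjusted p under 0.05: Sdha, the flavoprotein that oxidizes succinate, was at 192 ± 21.6 CPM in D32 FGF1 libraries and 172 ± 14.0 CPM at D26 (0.17, adjusted p = 0.18). The iron-sulfur subunit Sdhb (−0.26) and the membrane anchors Sdhc (−0.21) and Sdhd (−0.24) had adjusted p values of 0.19, 0.203 and 0.112.

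Among mitochondrial messages, the complex IV and complex V genes made up 4 of the 5 decreases. mt-Co3 had 3428 and 2880.4 CPM in DHA, 3624 and 2612 in LA and 2694 and 3355 in BSA libraries at D32 with FGF1. At D26 it had 4403 and 5102 CPM in DHA, 4537 and 4207 in LA and 4123 and 4533 in BSA libraries. The groups did not overlap, and mt-Co3 fell by 0.51 (SE 0.12, adjusted p = 0.0076). mt-Atp8 had a lowest, median and highest level of 179.6, 234 and 276 CPM in D32 FGF1 libraries and 292, 327 and 360.3 CPM at D26. It too was without overlap, and fell by 0.47 (SE 0.12, adjusted p = 0.0109). mt-Co1 fell by 0.38 (10229.9 ± 1127 and 13519 ± 1667 CPM, adjusted p = 0.041), mt-Co2 by 0.34 (3318 ± 396 and 4252 ± 287 CPM, adjusted p = 0.0499) and mt-Nd3 by 0.39 (211 ± 38.4 and 280.3 ± 26.2 CPM, adjusted p = 0.0446).

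The other 8 mitochondrial members did not pass. mt-Nd1 stood at −0.14, mt-Nd2 at −0.15, mt-Nd5 at −0.14, mt-Nd6 at −0.09, mt-Cytb at −0.07, mt-Nd4 at −0.01 and mt-Nd4l at 0.03, with adjusted p values of 0.385 to 0.939. mt-Atp6, at 1768 ± 365 CPM in D32 FGF1 libraries and 1963 ± 146 CPM at D26 (−0.13, adjusted p = 0.492), overlaps mt-Atp8 on the genome and could share reads with it. Its value also turned on a nuclear copy, described with the sequences of such copies. Summed over the 13 genes, the lowest, median and highest level was 25277, 28660.4 and 32808 CPM in D32 FGF1 libraries and 33064, 34073 and 39839 CPM at D26, without overlap. As shares of all counts before TMM scaling the groups did overlap, at 2.95 to 3.77% in D32 FGF1 libraries and 3.66 to 4.11% at D26, through replicate 1 of LA with FGF1. The nuclear sum was 6610.2 ± 222 CPM (6267 to 6800.3) in D32 FGF1 libraries and 7506 ± 1209 CPM (6008 to 9024) at D26, so the FGF1 libraries lay inside the D26 range. Mitochondrial over nuclear sums gave 4.34 ± 0.475 in D32 FGF1 libraries and 4.78 ± 0.479 at D26, which overlapped.

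**Figure D3:**
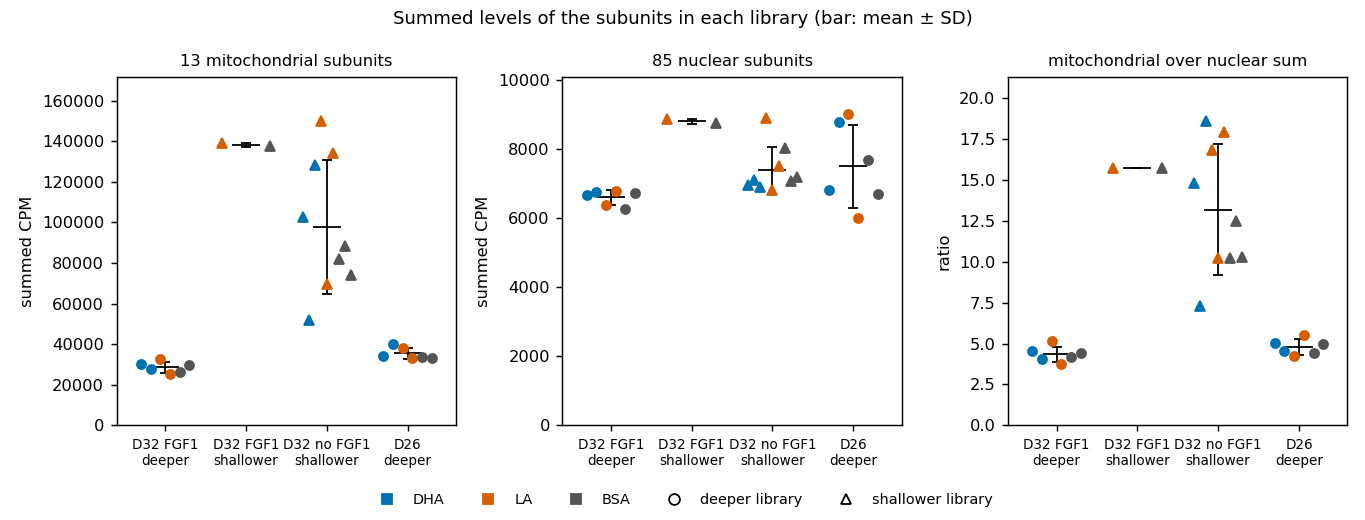
Summed CPM of the 13 mitochondrial subunits, of the 85 nuclear subunits and their ratio in each of the 23 libraries, with the mean and SD as bars, circles for deeper and triangles for shallower libraries. The ratio lies between 3.72 and 5.50 in every deeper library and between 7.32 and 18.6 in every shallower one, including the 2 shallower FGF1 libraries at 15.7.

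How many members passed depended on single libraries. Without replicate 2 of D26 LA, which had the lowest nuclear sum and was the lowest D26 library for 58 of 82 nuclear members and for 10 of the 12 that fell, 35 members were called, 34 of them lower. The count was 11 without replicate 2 of D32 DHA with FGF1 or of D32 BSA with FGF1, and 8 without replicate 2 of D32 LA with FGF1. It was 9 without D26 DHA replicate 2, 10 without D26 BSA replicate 1, and 11 without D26 BSA replicate 2 or D26 LA replicate 1. Cox7a2l was called in all 22 alternatives tried, and Cox6b2, Atp5s, Atp5e, Ndufa6, mt-Co3 and mt-Atp8 in 21 of them. The exception for these 6 was a fit of all 23 libraries, which called only Cox7a2l (−1.05, adjusted p = 0.00515). The other calls were lost more often. Of the 22 alternatives, 19 called Ndufb5 and Ndufv1, 17 Ndufa4l2, 16 Uqcrh, 14 Cox7c, 13 mt-Co1, 12 mt-Nd3, 11 Ndufb11, and 10 each Atp5c1, Ndufb10 and mt-Co2.

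Within each medium the same contrast had 2 libraries per side. In DHA, where 10.4% of all genes were called, 2 of 95 members fell. Cox6b2 fell by 1.05 (SE 0.27; 13.6 ± 2.28 and 28.3 ± 1.53 CPM, adjusted p = 0.0275) and Atp5e by 0.84 (SE 0.23; 58.5 ± 9.59 and 105 ± 31.1 CPM, adjusted p = 0.0357). In LA 0 members passed, where 5.16% of all genes were called. DESeq2 and limma voom also called 0 there, and 5 members had an unadjusted p under 0.05 in edgeR's test. The smallest were those of Atp5s (−0.66, adjusted p = 0.108) and Atp5g2 (−0.65, adjusted p = 0.126). In BSA, Atp5s fell by 0.91 (SE 0.22; 8.98 ± 0.565 and 17.1 ± 2.27 CPM, adjusted p = 0.0293), where 6.83% of all genes were called. The medians of nuclear and mitochondrial members were −0.22 and −0.21 in DHA, −0.13 and −0.16 in LA and −0.10 and −0.12 in BSA. The difference between the DHA and the LA contrast passed for 0 members and 0% of all genes in edgeR's test, with 1 member at an unadjusted p under 0.05 and 0 by DESeq2 and by voom. That member was Ndufc2, an accessory complex I subunit (−0.77, 95% interval −1.49 to −0.05, adjusted p = 0.762). The DHA count was 0 without D26 DHA replicate 2 and 8 without D26 LA replicate 1, and the BSA count ran from 0 to 2 with 1 library left out.

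No subunit passed between the fatty acids in the deeper libraries. DHA against LA, averaged over D26 and D32 with FGF1, called 0 members and 0.00497% of all genes, with nuclear and mitochondrial medians of 0.00 and −0.07. At D26 alone it called 0 members and 0% of all genes, and at D32 with FGF1 0 members and 0.00994%. The member nearest to passing was Atp5g2, the rarest of the c-subunit genes, which had 10.7 ± 0.473 CPM in DHA and 6.92 ± 0.0788 CPM in LA at D32 with FGF1 (n = 2 each), a difference of 0.59 (95% interval 0.10 to 1.08, adjusted p = 0.539). Averaged over both times it was 0.28 (−0.06 to 0.62). Cox7a1 (−0.47, −1.14 to 0.21) and Ndufb2 (−0.23, −0.60 to 0.13) came next over both times. At D26 the smallest p values belonged to Atp5e (0.36, −0.13 to 0.85), Ndufc2 (0.34, −0.17 to 0.84) and Cox7a1 (−0.63, −1.60 to 0.33). Ndufc2 stood on the other side of 0 at D32 with FGF1 (−0.44, −0.94 to 0.07), next to Ndufb7 (−0.38, −0.88 to 0.13).

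DHA against BSA called 0 members and 0% of all genes averaged, at D26 and at D32 with FGF1. LA against BSA called 0 members throughout, and 0.00497% of all genes averaged, 0% at D26 and 0.0149% at D32 with FGF1. Medians of nuclear and mitochondrial members were 0.06 and 0.04 for DHA against BSA and 0.06 and 0.08 for LA against BSA. The genes with the smallest p were Atp5s (0.27, 95% interval −0.07 to 0.60), mt-Atp6 (0.24, −0.11 to 0.60) and Uqcrc2 (0.21, −0.15 to 0.56) for DHA. For LA they were Ndufb7 (0.22, −0.13 to 0.58), Cox7a1 (0.40, −0.27 to 1.07) and mt-Nd6 (0.17, −0.12 to 0.46), and all had an adjusted p of 1. Within D26 they were Ndufc2 (0.39), Uqcrc2 (0.32) and Ndufa13 (0.36) for DHA and mt-Nd6 (0.25), Cox7a1 (0.54) and Ndufb7 (0.26) for LA. With FGF1 they were Atp5s (0.47) and Atp5g2 (0.37) for DHA, Ndufc2 (0.31) and Cox6b2 (0.32) for LA, and in both a second gene model of Atp5o with fewer than 1 CPM. In these 9 contrasts of media DESeq2 and limma voom also called 0 members, and at most 1 member had an unadjusted p under 0.05 in edgeR's test. The single-gene intervals above reach values as large as those of several genes that fell between D32 with FGF1 and D26, so these intervals do not exclude changes of that size.

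FGF1 at D32 could be compared within the shallower set only through 2 FGF1 libraries against 9 without. Both FGF1 libraries are among the 5 that stand apart, so the fit carried a term for the authors' table. It called 0 members and 0% of all genes, with 0 members at an unadjusted p under 0.05 and 0 by DESeq2 and voom. Mitochondrial members had a median of 0.34 with 0 of 13 below 0, and nuclear members one of −0.03. The smallest p values belonged to Ndufb6 (64.6 ± 3.15 and 40.0 ± 13.7 CPM; 0.69, 95% interval −0.23 to 1.61), Uqcrc2 (0.31, −0.14 to 0.77) and Cox5a (0.40, −0.28 to 1.09). The 3 contrasts of media at D32 in this set (DHA against LA, DHA against BSA and LA against BSA) each called 0 members and 0% of all genes, again 0 by DESeq2 and voom, with at most 1 member at an unadjusted p under 0.05. The smallest p values belonged to Ndufs7 (1.12, −0.01 to 2.24), Ndufb5 (−0.33) and Ndufa9 (−0.33) for DHA against LA, and to Ndufa10 (−0.44, −0.88 to −0.00), Atp5mpl (−0.33) and Uqcrq (−0.77) for DHA against BSA. For LA against BSA they were Sdhc (−0.35), Ndufs7 (−0.95) and Cox6c (0.30).

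D32 without FGF1 and D26 stood far apart in the subunits, but every library of the first is shallower and every library of the second is deeper, so day and library set cannot be told apart. Of 13 mitochondrial members 12 were higher, with a median log2 difference of 1.69, and of 82 nuclear members 17 were higher and 34 lower. Over all genes 60.9% were called, 29.5% higher and 31.4% lower. The mitochondrial sum was 51943 to 149781 CPM (97911 ± 33101, n = 9) at D32 without FGF1 and 33064 to 39839 CPM at D26. It was 51943 to 134185 CPM in the 6 of these 9 libraries that are in the authors' table. Without the libraries that stand apart the fit called 70 members, against 63 with them. Nuclear members of low and high GC content went opposite ways. Of the 31 with under 50% GC in their gene model 14 were higher and 1 lower (median 0.47). Of the 51 with 50% or more 3 were higher and 33 lower (median −1.13).

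The start of the coding sequence is shown for 5 members, chosen after their values were seen, because their values in the shallower libraries went with base composition. The sequences are from GENCODE M21 transcripts on GRCm38, 5′ to 3′, with G and C in capitals. Ndufb7 (chr8:83566671-83571626, plus strand) and Uqcr11 (chr10:80402997-80406830, minus strand), small subunits of complexes I and III, were low in shallower libraries. Uqcrb (chr13:66900617-66905378, minus strand), another small subunit of complex III, and Atp5j (chr16:84827866-84835625, minus strand), coupling factor 6 of the ATP synthase, were high in them. Ndufb4 (chr16:37647170-37654453, minus strand), an accessory subunit of complex I, was high in them although the stretch shown is 60.7% GC (48.2% over its gene model). The stretch is 64.0% GC in Ndufb7 and in Uqcr11, 42.7% in Uqcrb and 46.0% in Atp5j.
Ndufb7: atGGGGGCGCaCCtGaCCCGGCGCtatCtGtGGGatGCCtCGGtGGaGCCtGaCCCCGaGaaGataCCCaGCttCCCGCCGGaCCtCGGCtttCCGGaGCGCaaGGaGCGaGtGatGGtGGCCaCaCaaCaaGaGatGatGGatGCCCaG
Uqcr11: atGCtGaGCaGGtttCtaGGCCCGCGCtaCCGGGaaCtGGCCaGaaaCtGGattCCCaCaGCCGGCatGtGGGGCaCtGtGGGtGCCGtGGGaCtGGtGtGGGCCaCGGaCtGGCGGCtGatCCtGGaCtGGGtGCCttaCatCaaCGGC
Uqcrb: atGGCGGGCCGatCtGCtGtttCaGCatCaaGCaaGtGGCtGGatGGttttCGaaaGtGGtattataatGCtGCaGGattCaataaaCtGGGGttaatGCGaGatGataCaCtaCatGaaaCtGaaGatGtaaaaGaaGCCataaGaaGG
Atp5j: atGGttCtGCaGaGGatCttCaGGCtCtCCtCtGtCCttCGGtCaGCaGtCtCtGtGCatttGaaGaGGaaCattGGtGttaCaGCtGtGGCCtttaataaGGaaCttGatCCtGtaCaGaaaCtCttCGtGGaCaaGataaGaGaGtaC
Ndufb4: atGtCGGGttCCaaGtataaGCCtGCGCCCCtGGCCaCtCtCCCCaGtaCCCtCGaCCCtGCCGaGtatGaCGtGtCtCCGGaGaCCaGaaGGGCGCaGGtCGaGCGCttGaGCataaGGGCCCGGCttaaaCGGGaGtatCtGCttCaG

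Ndufb7 had a lowest, median and highest level of 0.638, 1.58 and 20.5 CPM at D32 without FGF1, against 93.8 ± 19.4 CPM (73.8 to 121, n = 6) at D26, and fell by 4.40 (adjusted p = 4.4e-04). Uqcr11 had 0.416, 1.39 and 11.4 CPM, against 50.4 ± 13.1 CPM at D26, and fell by 4.00 (adjusted p = 8.1e-04). Every one of these shallower libraries lay below every D26 library for both genes. A second gene model of Atp5o, among the 17 that rose, had 0 to 4.79 CPM at D32 without FGF1 and no counts at D26. Uqcrb rose by 1.79 (134, 225 and 315 CPM at D32 without FGF1, against 66.1 ± 12.7 CPM at D26, adjusted p = 0.0018) and Ndufb4 by 1.92 (21.6, 43.8 and 82.5 CPM, against 13.0 ± 1.62 CPM, adjusted p = 0.00511). With an offset for GC content in the fit, these differences were −2.66 for Ndufb7, −2.16 for Uqcr11, 0.90 for Uqcrb and 1.75 for Ndufb4, and the mitochondrial median was 0.66. Cox7a2l, of middling GC content, fell by 1.37 (122 ± 34.9 CPM at D32 without FGF1, range 76.8 to 191, and 317 ± 69.2 CPM at D26, range 196 to 387, adjusted p = 1.0e-04).

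The same split appeared between replicates of the same group. In BSA with FGF1, replicate 3, which is shallower, had 3.41 CPM of Ndufb7, while replicates 1 and 2, which are deeper, had 85.2 and 83.9 CPM. Uqcr11 was at 2.91 CPM in replicate 3 and at 48.2 and 38.5 CPM in replicates 1 and 2. In the other direction, Uqcrb was at 275 CPM in replicate 3 and at 52.9 and 66.3 CPM in replicates 1 and 2. Atp5j was at 321 and at 75.8 and 81.0 CPM. Atp5b, near the middle of the GC range, was at 720.2 CPM in replicate 3 and at 663 and 877 CPM in replicates 1 and 2. Other members of like GC content differed, with Ndufa2 (51.7% GC) at 4.92 CPM in replicate 3 and at 47.3 and 39.0 CPM in replicates 1 and 2, and Ndufa10 (52.0% GC) at 147 CPM in replicate 3 and at most 87.3 CPM in replicates 1 and 2. In LA with FGF1, Uqcr11 was at 0.110 CPM in replicate 3 and at 46.5 and 54.1 CPM in replicates 1 and 2, and Uqcrb was at 328 and at 61.3 and 60.7 CPM. Both replicates 3 are also among the 5 libraries that stand apart. The deposited gene counts also related differently to the sums of transcript counts in the library sets. For Ndufb7 the median ratio of gene count to transcript sum was 1.251 in the shallower set and 2.245 in the deeper set, and for Ndufb4 it was 1.309 and 0.802. For Uqcr11 it was 1.019 and 0.973, and for Uqcrb 1.014 and 0.982, so the sets differed less for these genes.

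Across the 82 nuclear members with at least 1 CPM in some library, the difference between D32 without FGF1 and D26 went down with GC content (41.3 to 61.0%) with a Pearson r of −0.77. The slope was −2.66 log2 units per 10 percentage points, and −2.63 with only the 6 libraries in the authors' table. These are correlations over genes of the same libraries, given as descriptions. Replicate 3 against replicates 1 and 2 gave r of −0.75 in BSA with FGF1 and −0.79 in LA with FGF1, and all 16370 genes with a mean of 1 CPM or more gave −0.74 for D32 without FGF1 and D26. Between D32 with FGF1 and D26 in the deeper libraries r was −0.03. The slope of single libraries relative to the D26 mean was −0.19 to 0.11 in the deeper set and −3.77 to −1.22 in the shallower set, and the library with the flattest shallower slope, D32 DHA replicate 2, also had the lowest mitochondrial sum of that set, 51943 CPM.

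**Figure D4:**
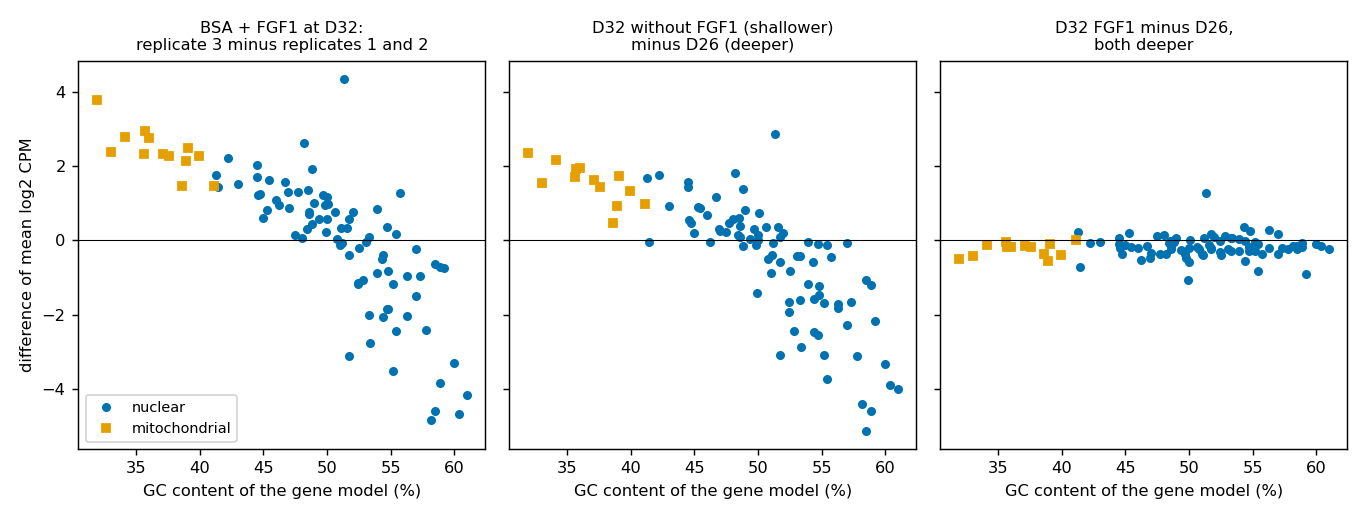
Difference of mean log2 CPM of each subunit with at least 1 CPM in some library (vertical axis) against the GC content of its gene model in percent (horizontal axis), for replicate 3 minus replicates 1 and 2 of BSA with FGF1, for D32 without FGF1 minus D26, and for D32 with FGF1 minus D26 within the deeper set. The first pair of panels, which set shallower against deeper libraries, slopes down with r of −0.75 and −0.77 over the nuclear subunits, and the last is flat with r of −0.03.

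Counts of some mitochondrial genes were divided with copies of mitochondrial DNA on chromosome 1. Gm28661 (GRCm38 chr1:24614885-24615565, minus strand) is identical to mt-Co2 over 681 of its 681 bases, so reads from either cannot be told apart. Gm28438 (chr1:24612775-24613119, minus strand) matches mt-Nd3 at 344 of 345 bases. The exception is T3C, which gives the mitochondrial base, its position from the first base of mt-Nd3, and the base of the copy. The first 60 bases of both pairs are shown to let the copies be compared, 5′ to 3′ from GENCODE M21, in lower case with the differing base in capitals.
mt-Co2: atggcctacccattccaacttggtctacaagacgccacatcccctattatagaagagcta
Gm28661: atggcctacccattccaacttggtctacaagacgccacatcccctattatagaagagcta
mt-Nd3: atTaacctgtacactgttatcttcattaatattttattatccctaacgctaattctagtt
Gm28438: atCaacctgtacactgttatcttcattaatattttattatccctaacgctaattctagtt

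The deposited tables assign the copy 41.4 to 66.5% of the counts of mt-Co2 plus Gm28661 in the shallower libraries and 6.36 to 19.6% in the deeper ones, so mt-Co2 counted alone left out a larger share of the pair's counts in the shallower libraries. With the copies added, mt-Co2 passed between D32 without FGF1 and D26 (1.37, adjusted p = 0.00664), where alone it had not (0.50, adjusted p = 0.101), and 13 of 13 mitochondrial members were then higher. In the deeper set, Gm10925, identical to mt-Atp6 over its 678 bases, was assigned 15.6 to 37.1% of the pair's counts in D32 FGF1 libraries and 33.1 to 45.8% at D26. With its copy added, mt-Atp6 was at 2592 and 2249.5 CPM in DHA, 2853 and 1964 in LA and 2064 and 2663 in BSA libraries at D32 with FGF1, against 3324 ± 227 CPM (3092 to 3625, n = 6) at D26, with no overlap. It then fell by 0.45 (SE 0.12, adjusted p = 0.0155) in place of the −0.13 it showed alone, while mt-Nd3 with its copy no longer passed (−0.35, adjusted p = 0.0546). Gm28437, identical to mt-Co3 over its 783 bases, was assigned 8.75 to 33.7% of the pair's counts in the shallower set and 1.02 to 6.46% in the deeper set. Gm29216, which matches part of mt-Co1 with 99.8% identity, was assigned 7.95 to 13.7% in the shallower set and 11.6 to 18.9% in the deeper set. With copies added, both genes still fell between D32 with FGF1 and D26, mt-Co3 by 0.51 (adjusted p = 0.00751) and mt-Co1 by 0.41 (adjusted p = 0.0393). Copies of mt-Nd4 (Gm28439) and mt-Nd4l (Gm10222) had no counts in any library.

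**Figure D5:**
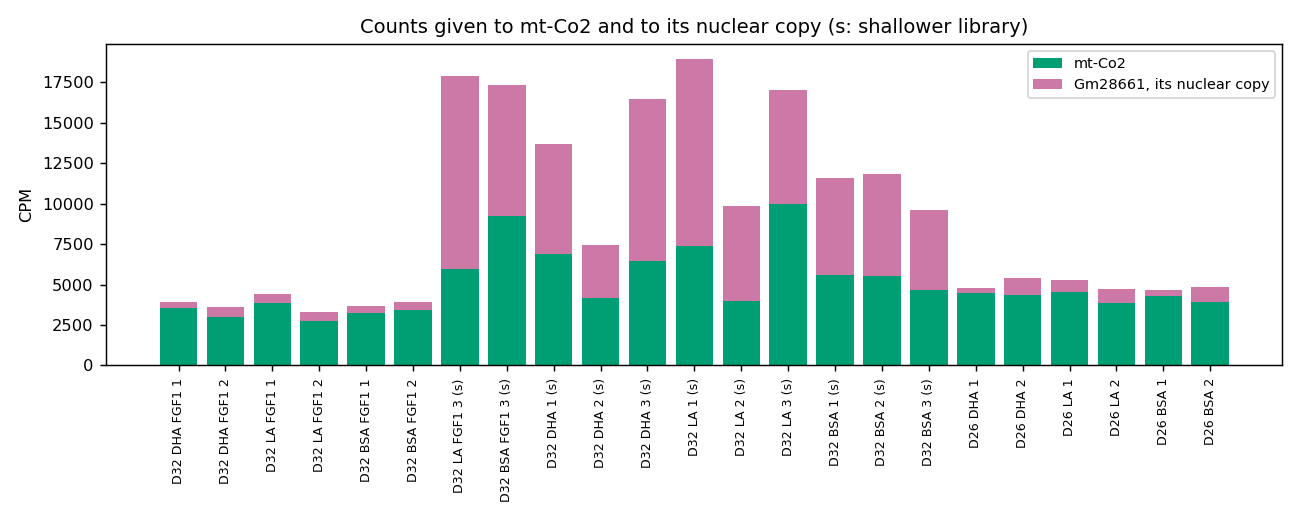
Stacked CPM of mt-Co2 and of its identical nuclear copy Gm28661 in each of the 23 libraries, with (s) marking shallower libraries and D26 at the right. The copy's part is 6.36 to 19.6% of each bar in deeper libraries and 41.4 to 66.5% in shallower ones.

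Members of the same genome mostly varied together within the deeper set, and nuclear ones less evenly in the shallower one. Over the deeper libraries, with group means taken off (12 libraries in 6 groups), the median Pearson r over pairs of nuclear members was 0.73 (quartiles 0.44 and 0.88). It was 0.53 over pairs of mitochondrial members (quartiles 0.23 and 0.75) and 0.16 between the genomes (quartiles −0.10 and 0.38). These pairs of members share libraries and scaling, and the values are descriptions. Each group held 2 libraries, whose deviations mirror each other, so each r rests on 6 independent values. The most alike gene to Cox7a2l was Cox4i2 (r = 0.98), followed by Ndufa6 (0.95) and Ndufa4l2 (0.91). Cox6b2 was most like Cox6a2 (0.94), Ndufv1 most like Sdhd (0.77), and mt-Co3 most like mt-Atp6 (0.85). Cox6a2 was at only 0.748 to 3.35 CPM in the deeper libraries. In the shallower set (9 libraries without FGF1), mitochondrial pairs had a median r of 0.92, nuclear pairs 0.35 (quartiles −0.40 and 0.79) and pairs between the genomes −0.42 (quartiles −0.76 and 0.61). There nuclear members with under 50% GC had 0.51 among themselves, and nuclear members of 50% GC or more had 0.78 among themselves. Pairs of nuclear members with 50% GC or more and under 50% GC had −0.27 in the shallower set and 0.73 in the deeper set.

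Other genes of the pathway were read from lists made with earlier results of these data known, for D32 with FGF1 against D26 in the deeper libraries. Over all genes tested 14.6% were higher and 14.1% lower, 28.7% in all. Of 10 regulators of mitochondrial biogenesis, 3 rose and 3 fell (median −0.04). The coactivator gene Ppargc1b rose by 1.55 (38.4 ± 6.41 CPM in D32 FGF1 libraries and 13.7 ± 4.40 at D26, adjusted p = 1.0e-05) and Ppargc1a by 0.77 (23.9 ± 2.34 and 14.3 ± 2.41 CPM, adjusted p = 4.0e-04). The nuclear receptor gene Esrrb rose by 2.66 (13.1 ± 7.40 and 2.06 ± 0.425 CPM, adjusted p = 8.6e-05). Nrf1, a transcription factor gene of respiratory-chain promoters, fell by 0.60 (34.7 ± 8.22 and 53.4 ± 4.44 CPM, adjusted p = 0.00704).

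Of 25 genes for upkeep and expression of mitochondrial DNA, 3 rose and 4 fell (median −0.04), 7 of 25 and so near the share over all genes. Polg, the mitochondrial DNA polymerase, rose by 0.75 (79.0 ± 14.1 CPM in D32 FGF1 libraries and 47.6 ± 2.72 at D26, adjusted p = 4.7e-04). Its accessory subunit gene Polg2 rose by 1.15 (21.1 ± 7.31 and 9.47 ± 0.908 CPM, adjusted p = 6.1e-04). Tfb1m, a methyltransferase of the mitochondrial ribosomal RNA, fell by 0.73 (5.80 ± 0.636 and 9.82 ± 1.18 CPM, adjusted p = 0.00293), as did Hsd17b10, a subunit of mitochondrial ribonuclease P, by 0.64 (adjusted p = 0.00849). Of 43 assembly factors tested (44 listed), 4 rose and 2 fell (median −0.07), a smaller share than over all genes. Those named by the smallest p were Cox18 (0.44, adjusted p = 0.0157), Foxred1 (0.44, adjusted p = 0.0167), Uqcc3 (0.45, adjusted p = 0.0222) and Ndufaf2, which fell by 0.59 (5.45 ± 0.636 and 8.29 ± 1.52 CPM, adjusted p = 0.0159). Of 5 further subunits and electron carriers 1 fell, Atpif1, the inhibitor protein of the ATP synthase, by 0.73 (65.8 ± 7.04 and 111 ± 24.3 CPM, adjusted p = 0.00382).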

How the data were processed

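The authors deposited expected counts (estimates, so not whole numbers) per gene and per transcript for all 23 libraries, and a signal in normalized CPM for 18 of them. The build GRCm38.p6, kallisto 0.45.0, Trimmomatic 0.36 and edgeR are named, in no stated order, per the submitters' processing notes. Per the file headers, the normalized CPM table also holds gene names, biotypes and positions; within each library its CPM were proportional to the gene counts (relative spread 1.9e-09). Whether counting used the strand is not given in the sources used here, and overlapping genes and near-identical copies may share counts.

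Gene counts were rounded to whole numbers and fitted with edgeR 4.0.16 (R 4.3.3; limma 3.58.1 and DESeq2 1.42.0 as alternatives): filterByExpr, TMM scaling and the quasi-likelihood test, with p values adjusted by Benjamini-Hochberg over all genes tested and a threshold of 0.05. The 12 deeper libraries had a mean per group (20111 genes, 6 residual degrees of freedom), the 11 shallower ones terms for medium, FGF1 and the authors' table (19484 genes, 6 degrees of freedom), and D32 without FGF1 was set against D26 in a fit of all 23 (21124 genes, 14 degrees of freedom). There were 19 comparisons. Of the 85 nuclear members 82, 81 and 82 passed the filter in these fits, and the 13 mitochondrial members passed it in each. A filter on low counts can pass a gene through its high group alone. Standard errors came from the F statistic and intervals are 95%. Log2 levels used a prior count of 2. Levels per length used transcript counts over transcript lengths, scaled to the same total in each library.

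Named genes were, per comparison, up to 10 per direction by size among those called, or the 3 smallest p values where none was; the 13 mitochondrial members and the tissue-restricted isoforms with their partners; and up to 4 per pathway list by the smallest p. Other members and the libraries' distinguishing genes were named after their values were seen. Members, lists and tests were chosen with earlier results of these data known. GC content of gene models and the printed sequences came from GENCODE M21, which holds 134456 of the transcripts, and all 98 members had a GC value.

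Replicates are called biological in the labels, but organoids are described as pooled from 1 clone, which was not tested. The p values measure the spread between these samples. No libraries of a group agreed within sampling noise (chi-square per degree of freedom of 11.5 or more). Deviations from group means correlated between same-numbered libraries at −0.16 to 0.46 in the deeper set, where the numbers were not taken as pairs. Between the D32 groups with FGF1 alone they were 0.29 for BSA and LA, 0.46 for BSA and DHA and 0.24 for LA and DHA. These also exceed the 0.1 of the rule given next. The main fits held no pairing, and a replicate block was run as an alternative. For DHA and LA at D32 without FGF1 the correlations were 0.33, 0.69 and 0.47, which pairs these libraries by the rule that every pair exceeds 0.1. The scripts' tests were run on simulated counts first. Protein sequences were not used here.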

Additional observations from a re-analysis of the deposited data

How the results depend on the processing

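Most counts of called subunits were 0 and stayed at 0 with 1 library left out, which says little about stability. For D32 with FGF1 against D26, the 18 calls became 1 with all 23 libraries in one fit, 19 with a replicate block, and 8 to 35 with 1 library left out; other alternatives gave 17 to 25. In DHA the 2 calls became 13 without a filter, 8 by DESeq2, 4 with the replicate block, 0 with all 23 libraries, 4 from sums of transcript counts and 0 to 8 with 1 library left out. In LA the 0 became 3 without a filter. In BSA the 1 became 6 without a filter, 3 by DESeq2, by voom and with the replicate block, 0 with all 23 libraries, 2 with the GC offset and from transcript sums, and 0 to 2 with 1 library left out. DHA or LA against BSA at D32 with FGF1 each gave 1 without a filter, a second model of Atp5o. FGF1 in the shallower set gave 46 calls with all 23 libraries, where it also sets deeper against shallower libraries. For D32 without FGF1 against D26 the 63 calls became 52 with the GC offset, 57 with the replicate block and 57 to 66 with 1 library left out. The replicate block changed no other count by over 1.5 times. The GC offset, transcript sums and added copies were chosen after seeing the data.

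In the fit of all 23 libraries Ndufv1 (−0.01) and Atp5c1 (0.02) changed sign for D32 with FGF1 against D26. Among the mitochondrial members that had fallen, mt-Co1 (0.43), mt-Co3 (0.21), mt-Nd3 (0.34) and mt-Atp8 (0.87) changed sign too, and mt-Co2 stood at −0.02. Cox5a changed sign for FGF1 at D32 (−0.78). That fit takes in both library sets, and the reason for these changes was not tested. The log2 ratio of nuclear sums, D32 without FGF1 over D26, was −0.02, −0.25 as shares of all counts, and −0.08 to 0.04 with 1 library left out. That of mitochondrial sums was 1.37 to 1.55 with 1 library left out, and for D32 with FGF1 over D26 the mitochondrial ratio was −0.35 to −0.27 and the nuclear one −0.24 to −0.12. The per-length log2 ratio of mitochondrial to nuclear medians was 3.81 to 3.90 in D32 FGF1 libraries and 3.94 to 4.06 at D26 with 1 library left out, and 4.52 and 4.44 with 200 bases off each length.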
